A study of Gallus gallus and Dromaius novaehollandiae and Alligator mississippiensis with 60 samples.

Results

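The transition from claw placode to claw morphogenesis was followed in the embryonic epidermis of chicken (Gallus gallus), emu (Dromaius novaehollandiae) and American alligator (Alligator mississippiensis), in 11 of the 60 RNA-seq libraries of a series on skin appendages. The libraries were chosen from the labels alone, as all epidermis libraries of a claw tract at either stage. Chicken contributed 2 placode and 2 morphogenesis libraries, emu 1 and 2, and alligator 2 and 2. In both birds the placode libraries were labelled Hamburger and Hamilton (HH) stage 36 and the morphogenesis libraries HH stage 38, and the alligator libraries, from the foot, were labelled Ferguson stages 21 and 22. The embryos carried no stated treatment or allele, and all skin pieces had been incubated with dispase, a protease that frees the epidermis from the dermis. The claw libraries carry separate specimen numbers, and the series' design calls the replicates biological; nothing more is said of clutches or litters. Within each species all placode libraries carry the same stage label and all morphogenesis libraries a later one, so stage and age cannot be told apart. Stages of birds and alligator follow different staging systems, so ages cannot be matched between them. The species are compared in their stage differences, not in their levels.

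A placode is a local thickening of the epidermis, with a condensed dermis beneath it, from which a skin appendage grows. In the claw the epidermis of the digit tip then grows over the terminal phalanx and later cornifies into a hard sheath around the bone. Claws of birds and crocodilians share a cornified epidermis with scales and feathers. The mature sheath holds both alpha-keratins and the corneous beta-proteins (beta-keratins) of reptiles and birds.

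The deposited values are in TPM, a level normalised to gene length and to the size of the library, for chicken Ensembl gene identifiers in all 3 species. A value was present in every species for 6150 of 17889 genes, and 4278 of these reached 1 TPM in at least 2 claw libraries of each species and were tested. None of the identifiers matched the gene names used here (0 matches), so genes are given by identifier, without names, positions, sequences or roles, and no pathway list was applied. Chicken totals ran from 996323 to 999897 TPM, alligator totals from 619786 to 619877 and emu totals from 549891 to 549939, and the 10 highest genes held 8.53% to 14.2% of a library. TPM keeps no read depth, so the counting error of a value is unknown. In bulk tissue, fewer cells of a type and less RNA per cell cannot be told apart.

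The 2 chicken placode libraries differed from each other. Chicken placode replicate 2 correlated with placode replicate 1 at r = 0.962 across genes on log2(TPM + 1), less than with morphogenesis replicates 1 and 2 (0.975 and 0.968). Placode replicate 1 correlated with morphogenesis replicates 1 and 2 at 0.953 and 0.953, so its correlations were the lowest among the chicken claw epidermis libraries. The morphogenesis replicates correlated at 0.990 with each other. Dermis-enriched genes, a list of 1058 drawn from chicken feather and scale libraries, held 1.54% of the TPM of placode replicate 2. They held 0.697% in placode replicate 1, and 0.814% and 0.65% in the morphogenesis replicates. In the chicken claw dermis, sequenced once per stage, the same list held 7.07% and 10.1%. The counts that lead each comparison are therefore given with and without placode replicate 2. Leaving it out leaves 1 chicken placode library, which adds no spread of its own, so the spread comes from the other groups. A larger count without it is thus not by itself a sign of more change. In alligator the 2 placode libraries correlated at 0.989 and the 2 morphogenesis libraries at 0.993, above every correlation between stages (0.947 to 0.969). In emu the single placode library correlated at 0.982 and 0.977 with the later libraries, which correlated at 0.985 with each other.

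Genes that moved alike were sought first. Averaged over the 3 species with equal weight, 346 genes were higher (8.09% of those tested) and 1231 lower (28.8%) at claw morphogenesis, by limma with Benjamini-Hochberg adjustment at 0.05. Of these, 254 were higher in each species (5.94%) and 1073 lower in each species (25.1%), and these are called claw risers and claw fallers below. In the counts that follow, folds are of TPM + 1, so a gene near 0 can pass, as ENSGALG00000016150 does in emu. A change of at least 2-fold in the mean over species was seen in 50 of the risers and 66 of the fallers. In 15 risers and 7 fallers the change exceeded 2-fold in every species, and in 18 and 10 without chicken placode replicate 2. A stricter rule, under which a gene had to be called in each species on its own, gave 0 genes, since no emu difference was called. For emu alone, 780 genes had an unadjusted p under 0.05 and 0 passed adjustment in the 11 claw libraries, whereas 670 passed in a fit of all 50 epidermis libraries of the series. In that wider fit 194 genes (27 higher and 167 lower) met the stricter rule. The wider fit treated libraries of shared specimens as independent, so its p-values may be too small. Its emu claw placode group still held 1 library. Single libraries moved these counts. The 1577 genes called in the mean fell to 1040 without alligator placode replicate 2. The emu count was 64 and 74 without chicken placode replicates 1 and 2 and 40 without emu morphogenesis replicate 1, and the stricter rule then gave 4, 18 and 6 genes.

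The surplus of lower genes depends on the scaling. The median difference over all tested genes was -0.18 on the log2(TPM + 1) scale, and after a median-of-ratios rescaling it was -0.00, a shift of more than 0.1. After that rescaling 637 genes were higher and 487 lower in the mean over species, and after quantile normalization 562 and 606. Risers then numbered 524 and 464, and fallers 405 and 520. Under all 3 scalings 250 genes were risers and 352 were fallers. The 250 risers had a median log2 difference of 0.60 in chicken, 0.50 in emu and 0.72 in alligator. For the 352 fallers the medians were -0.53, -0.62 and -1.02. These medians describe genes chosen by the same values and are no separate support. Leaving out chicken placode replicate 2 gave 343 risers and 1109 fallers, of which 241 and 987 were shared with the full set.

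The share of RNA held by risers and fallers was also measured. Its direction is set by the choice of these genes on the same libraries, so the values show its size only. Of the summed TPM of the tested genes, risers held 4.21% and 5.44% in the chicken placode libraries. They held 8.35% and 8.75% in the chicken morphogenesis libraries. In alligator the riser shares were 6.52% and 5.2% at placode and 11.7% and 12.3% at morphogenesis. In emu they were 7.58% at placode and 11.1% and 15.2% at morphogenesis. Fallers held 26% to 29.3% in the 5 placode libraries and 18.6% to 22.9% in the 6 morphogenesis libraries.

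ENSGALG00000015764 had the largest increase among the risers. It was measured at 5.75 and 11.9 TPM in the chicken placode libraries and at 163 and 31.3 TPM in the morphogenesis libraries. In emu it stood at 106 TPM at placode and at 1474 and 1214 TPM at morphogenesis, and in alligator at 48 and 5.48 TPM and then at 529 and 993 TPM. Every later library of a species was above every earlier one, although the replicates differed several-fold within the chicken morphogenesis and alligator placode groups. On its own the difference was called in alligator (5.35, limma adjusted p = 0.02), but not in chicken (2.96, adjusted p = 0.15) or emu (3.64, adjusted p = 0.27). The mean difference over species was 3.98 (log2, SE 0.73, limma adjusted p = 0.01). With only the emu and alligator libraries whose lane number occurs at both stages it was 4.18, with an adjusted p of 0.061. In the other appendages, which are separate libraries, ENSGALG00000015764 also rose in chicken reticulate scales (5.14, adjusted p = 0.00012) and alligator femoral scales (3.58, adjusted p = 0.00065), where 6.23% and 11.8% of all genes were called higher. In the other 8 appendages it was not called, with differences from -0.21 in emu dorsal feathers to 1.17 in chicken femoral feathers. It stood at 14.2 and 11.2 TPM in the chicken claw dermis at placode and morphogenesis.

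ENSGALG00000016150 followed. It was at 2.42 and 1.86 TPM in the chicken placode libraries and at 70.7 and 62 TPM in the morphogenesis libraries. In alligator it went from 31.2 and 12.1 TPM to 961 and 1580 TPM. In emu it was listed at 0 at placode and stood at only 1.0 and 1.3 TPM later, so no fold is given there. The mean over species was 3.81 (log2, SE 0.24, limma adjusted p = 0.00019), with 4.43 in chicken and 5.91 in alligator. The alligator difference exceeded the mean of the birds by 3.15 (SE 0.49, adjusted p = 0.012). Both the mean over species and the mean of the birds include the emu values near 0. In the fit of chicken and alligator only, the chicken difference minus that of alligator was -1.48 (SE 0.60, limma adjusted p = 0.18), not called. Because its emu values lie at the 1 TPM limit, ENSGALG00000016150 leaves the test of 3 species when either emu morphogenesis library is left out. Its level in the chicken claw dermis was 0.0751 TPM at placode and it was listed at 0 at morphogenesis.

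The fallers were led by ENSGALG00000020899. Its chicken values were 12.7 and 12.4 TPM at placode and 3.64 and 3.14 TPM at morphogenesis, those of emu 74.1 TPM and then 33.7 and 40 TPM, and those of alligator 29.5 and 50.2 TPM and then 2.97 and 2.79 TPM. All 6 later libraries were below every placode library of their species. The mean difference was -1.99 (log2, SE 0.15, limma adjusted p = 0.00019). The alligator decrease was the larger, by -2.03 against the mean of the birds (SE 0.30, adjusted p = 0.011). In the other appendages ENSGALG00000020899 fell in chicken dorsal and femoral feathers (-0.63 and -0.98, adjusted p = 0.02 and 0.0014), where 10.7% and 10.1% of all genes were called lower. It also fell in chicken scutate scales (-1.20, adjusted p = 8.9e-05) and alligator femoral scales (-1.39, adjusted p = 9.8e-06), where 21.1% and 32.3% of all genes were called lower. It was not called in the other 6 appendages, with differences from -0.48 in chicken reticulate scales to 0.51 in emu reticulate scales. The chicken claw dermis held ENSGALG00000020899 at 23.2 TPM at placode and 73.4 TPM at morphogenesis, above the chicken claw epidermis at either stage. The part of dermis RNA in its decrease was not tested.

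ENSGALG00000016945 was next, at 2.91 and 6.92 TPM in the chicken placode libraries and 1.25 and 0.188 TPM in the morphogenesis libraries. Emu values were 41.9 TPM and then 23.7 and 6.96 TPM, and alligator values 36.5 and 61.3 TPM and then 10.8 and 12.3 TPM. The stages did not overlap in any species. The mean difference was -1.77 (log2, SE 0.37, limma adjusted p = 0.0093). By species it was called in alligator (-1.94, adjusted p = 0.041), but not in chicken (-1.77, adjusted p = 0.096) or emu (-1.61, adjusted p = 0.29). In the other appendages ENSGALG00000016945 fell in chicken dorsal and femoral feathers, alligator femoral scales and emu reticulate scales (-1.59, -1.18, -1.54 and -1.18). It rose in emu dorsal feathers (0.63, limma adjusted p = 0.032), where 7.87% of all genes were called higher, and was not called elsewhere. This gene belongs to the dermis-enriched list and was measured at 690 TPM in the chicken claw dermis at placode and 237 TPM at morphogenesis. Its highest chicken value was in placode replicate 2, the library with the most RNA of that list, and the part of dermis RNA in the decrease was not tested.

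**Figure D1:**
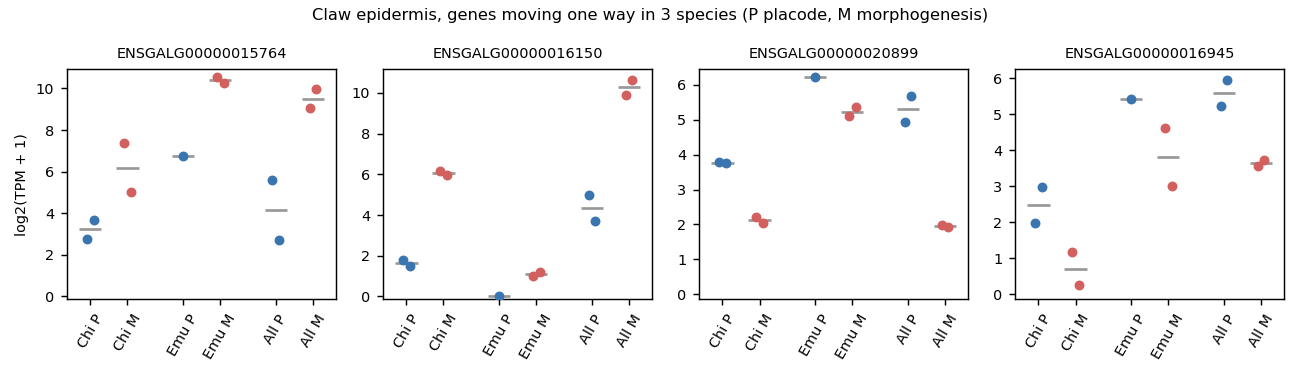
Level of the 4 named risers and fallers in each claw epidermis library, as log2(TPM + 1) on the vertical axis, with placode (P) in blue and morphogenesis (M) in red for chicken (Chi), emu (Emu) and alligator (All); each point is a library and each grey bar a group mean. In each panel the stages stand apart within every species, and ENSGALG00000016150 is near 0 in emu.

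The species were compared next. In chicken 133 genes were higher (3.11%) and 158 lower (3.69%) at morphogenesis, and in alligator 325 were higher (7.6%) and 982 lower (23%). Among genes called in both, 54 rose in both, which is 40.6% of the chicken and 16.6% of the alligator risers. A further 70 fell in both, which is 44.3% and 7.13% of the genes that fell. Another 13 genes went opposite ways, 6 of them up in chicken and down in alligator. The emu stage difference was not among the contrasts that chose these genes. Emu values were higher at morphogenesis for 43 of the 54 (median log2 difference 0.53) and lower for 61 of the 70 (median -0.41). Over all 4278 tested genes, 1430 were higher and 2848 lower in emu, with a median of -0.16. Without chicken placode replicate 2, 147 genes rose and 197 fell in both chicken and alligator and 76 went opposite ways. Emu values were then higher for 109 of the 147 (median 0.32) and lower for 173 of the 197 (median -0.40). Across genes, the log2 differences of 2 species correlated at r = 0.38 for chicken and emu, 0.39 for chicken and alligator and 0.38 for emu and alligator, with the same sign in 64.2%, 65.2% and 68.3% of genes. Genes are not independent replicates, and these correlations carry no p.

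After median-of-ratios rescaling 255 genes were higher and 81 lower in chicken, 583 and 511 in alligator, and 27 and 2 in emu. The counts per species depend on single libraries, and an omission leaves 1 library in a group, which then adds no spread of its own. Without chicken placode replicate 2, 906 genes were called in chicken (489 higher, 11.6% of those tested, and 417 lower, 9.87%), and 7 without chicken morphogenesis replicate 2. The chicken count was 170 without placode replicate 1 and 30 without morphogenesis replicate 1, and 124 to 131 without any one alligator library. In alligator 378 genes were called without placode replicate 2, 627 without morphogenesis replicate 1 and 753 without morphogenesis replicate 2.

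**Figure D2:**
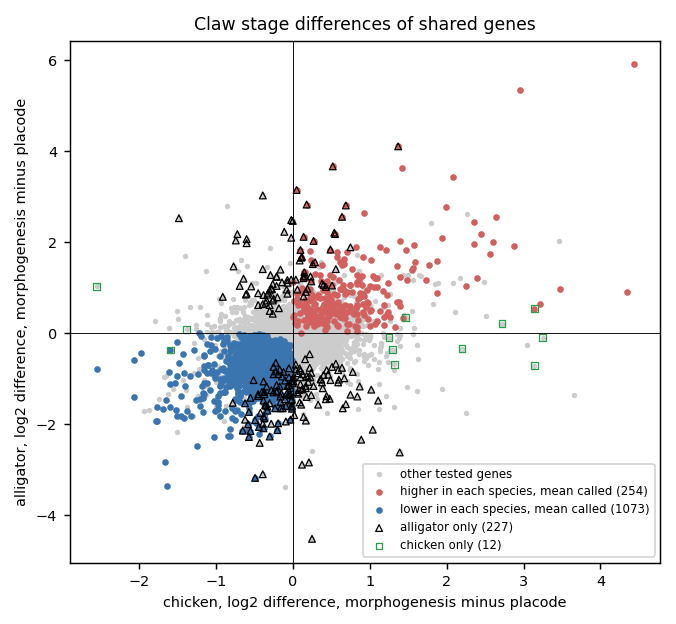
Difference between claw morphogenesis and claw placode in chicken (horizontal axis) and alligator (vertical axis), each in log2(TPM + 1), for the 4278 tested genes; red and blue points are the 254 risers and 1073 fallers, triangles the 227 genes changing in alligator alone and squares the 12 changing in chicken alone. Triangles lie mostly along the vertical axis and squares along the horizontal one, as their choice requires.

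A gene was placed in a single species when it was called there, called again in the test of that species' difference against the mean of the others, and not called in either other species. The difference itself was called for 33 genes in chicken (19 higher, 0.444%, and 14 lower, 0.327%), for 1 in emu (higher, 0.0234%) and for 282 in alligator (105 higher, 2.45%, and 177 lower, 4.14%). In emu 517 genes had an unadjusted p under 0.05 for that difference. Under the full rule 9 genes rose in chicken alone (0.21%) and 3 fell (0.0701%), 0 were particular to emu, and 82 rose (1.92%) and 145 fell (3.39%) in alligator alone. The 82 had a median log2 difference of 1.19 in alligator and -0.05 in the other species, and the 145 had -1.33 and -0.07. The rule asks for a larger change, not for none elsewhere, and 20 of the 82 and 50 of the 145 are also claw risers or fallers, as are 1 of the 9 and 1 of the 3 in chicken. After median-of-ratios rescaling the alligator set held 258 genes, of which 144 rose, and the test against the birds 173 and 149. Missing the threshold in emu says little, given its single placode library. Without chicken placode replicate 2 the chicken set held 139 risers and 34 fallers, of which 8 and 2 were shared with the full set, and the emu set 7 and 2. The alligator set then held 95 and 203, with 68 and 124 shared. It shrank to 2 genes without alligator placode replicate 2 and to 1 without alligator morphogenesis replicate 2. It held 58 genes without alligator morphogenesis replicate 1 and 149 without alligator placode replicate 1. Chicken libraries moved it too, to 364 without placode replicate 1, and to 106 and 121 without morphogenesis replicates 1 and 2.

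ENSGALG00000016721 rose in chicken alone. It was measured at 3.06 and 1.74 TPM at placode and at 30.4 and 31.3 TPM at morphogenesis. Emu stood at 1.82 TPM and then at 2.22 and 2.45 TPM, and alligator at 7.45 and 8.18 TPM and then at 6.23 and 8.37 TPM. In the other 10 appendages it was not called, with differences from -0.79 in emu reticulate scales to 0.67 in chicken scutate scales. In the claw, the chicken libraries of both stages are far apart, while the alligator stages overlap. The chicken difference was 3.25 (log2, SE 0.25, limma adjusted p = 0.00046), and it exceeded the mean of the other species by 3.18 (SE 0.32, adjusted p = 0.0045), a call kept in each of 10 fits that left out a library.

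ENSGALG00000009830 also rose in chicken, from 0.299 and 1.28 TPM to 13.9 and 14.5 TPM. In emu it was already at 19.7 TPM at placode, with 14.8 and 38.5 TPM later. In alligator it was at 1.65 and 2.49 TPM and then at 0.592 and 1.17 TPM. The stages were apart in chicken and overlapped in emu, and in alligator both later values were the lower ones, a difference of -0.71 that was not called (adjusted p = 0.22). The chicken difference exceeded the others by 3.36 (log2, SE 0.54, limma adjusted p = 0.03).

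Of the 3 genes that fell in chicken alone, ENSGALG00000004860 changed most. It went from 85.9 and 44.6 TPM to 10.1 and 9.40 TPM in chicken. In alligator the values were 3.36 and 2.39 TPM and then 6.01 and 7.76 TPM, in the other direction, and in emu 19.8 TPM and then 13.3 and 6.47 TPM. The chicken difference was -2.55 (log2, SE 0.36, limma adjusted p = 0.0077) and differed from the others by -2.56 (SE 0.46, adjusted p = 0.046). The chicken claw dermis held it at 74.6 TPM at placode and 17.7 TPM at morphogenesis. In the other appendages ENSGALG00000004860 rose in emu dorsal and femoral feathers (1.59 and 1.82, limma adjusted p = 0.0071 and 0.0091), where 7.87% and 1.75% of all genes were called higher. It was not called elsewhere, with -0.88 in chicken reticulate scales and -0.54 in chicken scutate scales.

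ENSGALG00000013553 fell from 18.6 and 19.9 TPM to 6.05 and 5.38 TPM in chicken. In alligator it was at 55 and 54.3 TPM and then at 47.2 and 37.3 TPM, and in emu at 47.6 TPM and then at 40.6 and 40.8 TPM. Every later library was below the earlier ones of its species, so this gene is among the claw fallers too (mean -0.73, adjusted p = 0.0014), and its decrease was the larger in chicken. The chicken difference was -1.59 (log2, SE 0.16, limma adjusted p = 0.0013) and differed from the others by -1.30 (SE 0.20, adjusted p = 0.027). In the other appendages ENSGALG00000013553 fell as far in chicken scutate scales (-1.60, limma adjusted p = 0.0041), where 21.1% of all genes were called lower. It was not called elsewhere. The chicken claw dermis held it at 44.4 TPM at placode and 31.9 TPM at morphogenesis, and the part of dermis RNA in its decrease was not tested. For ENSGALG00000009830, ENSGALG00000004860 and ENSGALG00000013553 this test against the other species was lost when either chicken morphogenesis library was left out, with adjusted p from 0.11 to 0.18. It was also lost without either alligator placode library (0.052 to 0.12) and without alligator morphogenesis replicate 1 (0.063 to 0.12). For ENSGALG00000009830 and ENSGALG00000004860 it was lost without alligator morphogenesis replicate 2 as well (0.079 and 0.092). The chicken difference itself lost its call without chicken morphogenesis replicate 2 for ENSGALG00000009830 (0.074) and ENSGALG00000004860 (0.082), and for the latter also without morphogenesis replicate 1 (0.055).

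In alligator, ENSGALG00000001209 had the largest increase among the genes placed there alone. It went from 1.98 and 1.23 TPM to 42.6 and 44.1 TPM. Chicken values were 4.86 and 13.6 TPM and then 19 and 27.7 TPM, also without overlap, and emu values 6.60 TPM and then 9.06 and 9.12 TPM, so this gene is among the claw risers too. The alligator difference was 4.11 (log2, SE 0.37, limma adjusted p = 0.00023) and exceeded the mean of the birds by 3.22 (SE 0.48, adjusted p = 0.011). What is placed in alligator is therefore the size of its increase.

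ENSGALG00000004078 rose in alligator from 5.41 and 1.40 TPM to 35.6 and 66.6 TPM. In chicken it was at 3.28 and 4.26 TPM and then at 4.82 and 6.92 TPM, and in emu at 9.65 TPM and then at 14.9 and 9.02 TPM, where the stages overlap. As the differences were 0.52 and 0.25 in chicken and emu and the mean was called (1.48, adjusted p = 0.0062), this gene is also among the claw risers. The alligator difference was 3.67 (log2, SE 0.47, limma adjusted p = 0.0011) and exceeded the birds by 3.29 (SE 0.60, adjusted p = 0.019).

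ENSGALG00000016324 had the largest decrease. It stood at 24.3 and 93.6 TPM in the alligator placode libraries, which differ several-fold, and at 0.677 and 1.71 TPM later. Emu kept it at 53.1 TPM and then 55.6 and 64 TPM, and chicken had 1.85 and 1.41 TPM and then 3.53 and 1.14 TPM. The alligator difference was -4.52 (log2, SE 0.61, limma adjusted p = 0.002), and it differed from the birds by -4.73 (SE 0.77, adjusted p = 0.017). The chicken claw dermis held this gene at 49.2 TPM at placode and 10.5 TPM at morphogenesis. The part of dermis RNA in the alligator decrease was not tested.

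ENSGALG00000004420 fell in alligator from 28.5 and 53.3 TPM to 3.23 and 3.61 TPM. It is among the claw fallers too, being lower in each bird, at 18.5 TPM and then 6.31 and 6.05 TPM in emu and at 11.4 and 8.59 TPM and then 5.70 and 8.03 TPM in chicken. The alligator difference was -3.18 (log2, SE 0.29, limma adjusted p = 0.00023), and differed from the birds by -2.22 (SE 0.37, adjusted p = 0.012). For all 4 alligator genes the test against the birds was lost without alligator placode replicate 2 (adjusted p from 0.054 to 0.078) and without morphogenesis replicate 2 (0.051 to 0.075). For ENSGALG00000016324 and ENSGALG00000004420 it was lost without morphogenesis replicate 1 as well (0.078 and 0.058). With the emu and alligator libraries of a lane number held by both stages the call was lost for all 4 (adjusted p from 0.07 to 0.13).

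**Figure D3:**
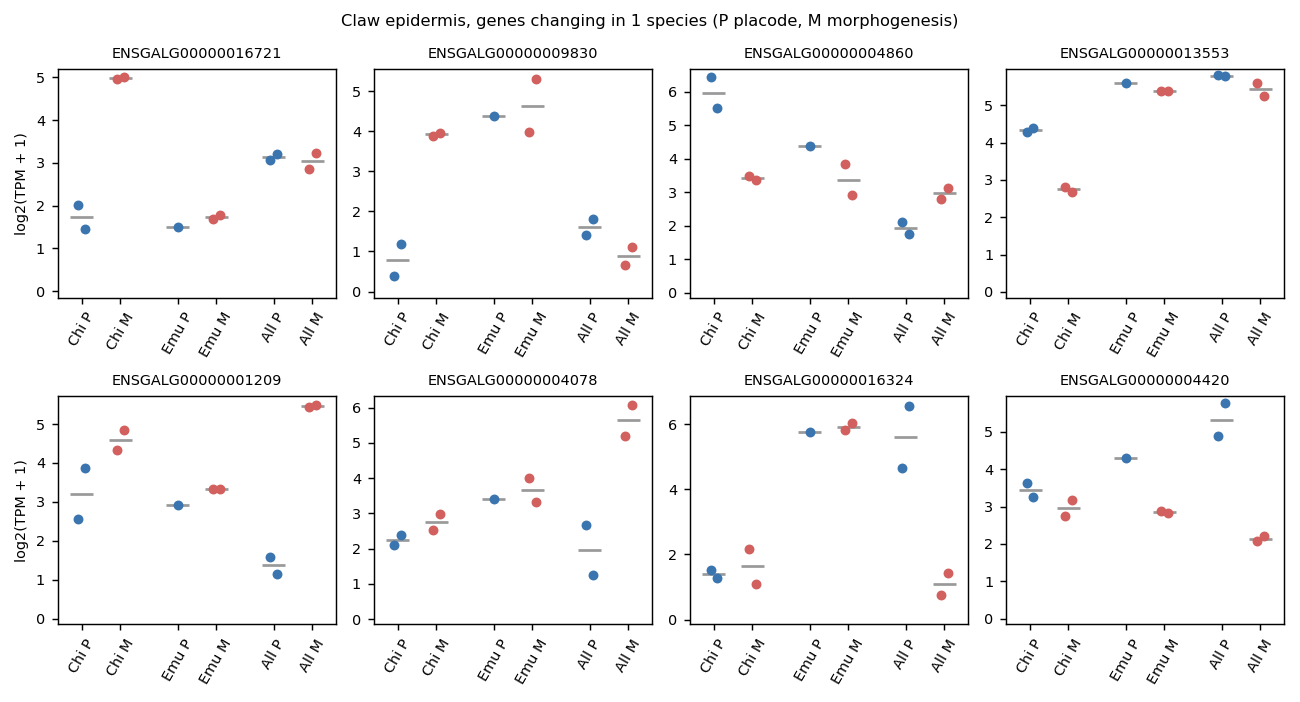
Level of the 8 genes named for chicken (upper row) and alligator (lower row) in each claw epidermis library, as log2(TPM + 1) on the vertical axis; points are libraries at placode (P, blue) and morphogenesis (M, red) of chicken (Chi), emu (Emu) and alligator (All), and grey bars are group means. The named species shows the wide gap between stages; ENSGALG00000001209, ENSGALG00000004078 and ENSGALG00000004420 have the same sign in both birds, and ENSGALG00000013553 has the same sign in all 3 species.

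The alligator genes were then read in separate alligator libraries, those of flank and femoral scales. Of the 82 genes that rose in the alligator claw alone, 79 were tested there, and 31 rose in femoral scales (39.2%, against 11.8% of all genes tested) while 6 fell (7.59% against 32.3%). Of the 145 that fell, 142 were tested, and 82 fell in femoral scales (57.7%) while 8 rose. In flank scales 2 of the 79 rose and 1 of the 142 fell, where 0.685% and 2.67% of all genes were called higher and lower. The named genes did not all follow. ENSGALG00000001209 rose in femoral scales (log2 difference 0.96, limma adjusted p = 0.0071), and the differences of ENSGALG00000004078, ENSGALG00000016324 and ENSGALG00000004420 were -0.26, -0.39 and 0.38 (adjusted p = 0.49, 0.57 and 0.3). In birds, ENSGALG00000004078 rose in chicken dorsal feathers, scutate and reticulate scales and in emu reticulate scales (1.24, 1.05, 1.04 and 1.45). ENSGALG00000001209 rose in chicken scutate and emu reticulate scales (0.90 and 1.62), and ENSGALG00000016324 fell in chicken reticulate scales (-2.12). ENSGALG00000004420 fell in chicken femoral feathers, scutate and reticulate scales (-0.89, -1.52 and -0.88), but rose in emu femoral feathers (1.07).

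Many genes had no value in one of the species, and narrower fits covered them. In the birds alone 6072 genes were tested and 2 were called, both higher (0.0329%), with 1618 at an unadjusted p under 0.05. One of these, ENSGALG00000004157, has no alligator value here. It went from 0.916 and 3.06 TPM to 40.1 and 38.1 TPM in chicken and from 7.94 TPM to 81.7 and 112 TPM in emu. The stages did not overlap in either bird, and the mean difference was 3.64 (log2, SE 0.28, limma adjusted p = 0.023). The other was ENSGALG00000016150. Without chicken placode replicate 2 the bird count was 806 and without chicken placode replicate 1 it was 70, whereas it was 0 without either chicken morphogenesis library or without emu morphogenesis replicate 2, and 1 without emu morphogenesis replicate 1. ENSGALG00000004157 lost its call without any one of the 4 morphogenesis libraries (adjusted p from 0.095 to 0.25). After median-of-ratios rescaling 52 genes were called in the birds, 46 of them higher.

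In chicken and alligator together 6818 genes were tested, of which 579 were higher (8.49%) and 1860 lower (27.3%). Among the 2258 of these with no emu value, 210 were higher and 646 lower. After median-of-ratios rescaling 1067 of all tested genes were higher and 843 lower. The total of 2439 fell to 1126 without alligator placode replicate 2, to 1384 and 1490 without chicken morphogenesis replicates 2 and 1, and to 1489 and 1594 without alligator morphogenesis replicates 1 and 2.

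The largest increase without an emu value belonged to ENSGALG00000003843, a gene of the epidermis-enriched list described below. In chicken it was measured at 562 TPM in placode replicate 1, at 6835 TPM in placode replicate 2 and at 13300 and 12810 TPM at morphogenesis. In alligator it went from 12.8 and 5.12 TPM to 3434 and 3721 TPM. Chicken placode replicate 2 thus stood between the other placode library and the later ones. The mean difference was 5.67 (log2, SE 0.85, limma adjusted p = 0.009). In the same fit the chicken difference was 2.73 (SE 1.21, limma adjusted p = 0.2), not called, and the alligator difference was 8.60 (SE 1.21, adjusted p = 0.0084).

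ENSGALG00000024296 had a like pattern, at 2.45 and 50 TPM and then 204 and 222 TPM in chicken. In alligator it was listed at 0 in one placode library and at 0.143 TPM in the other, and then reached 34.4 and 23.9 TPM. It thus met the 1 TPM filter in alligator only through the morphogenesis libraries, and leaves the fit without either of them. Again chicken placode replicate 2 lay between replicate 1 and the later stage. The fitted mean difference was 4.40 (log2, SE 0.87, limma adjusted p = 0.018), and the call was lost without chicken morphogenesis replicate 1 or 2 (adjusted p = 0.062 and 0.063).

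Among the genes that fell, ENSGALG00000013587 went from 101 and 60.8 TPM to 10.7 and 11.6 TPM in chicken and from 60.2 and 160 TPM to 8.36 and 5.77 TPM in alligator. Its mean difference was -3.17 (log2, SE 0.32, limma adjusted p = 0.0016). The chicken claw dermis held it at 2120 TPM at placode and 1176 TPM at morphogenesis, and the part of dermis RNA in its decrease was not tested.

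ENSGALG00000004331 went from 21.1 and 8.20 TPM to 0.440 and 0.152 TPM in chicken and from 20.2 and 18 TPM to 5.41 and 4.16 TPM in alligator. The stages were apart in both species. In chicken it met the 1 TPM filter only through the placode libraries, and it leaves the fit without either of them. The mean difference was -2.64 (log2, SE 0.27, limma adjusted p = 0.0012), and the chicken claw dermis held 3.49 and 1.93 TPM.

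The chicken libraries alone allowed 11400 genes to be tested, of which 3 were called, all higher (0.0263%), with 2474 at an unadjusted p under 0.05. Without chicken placode replicate 2 the count was 2548, without placode replicate 1 it was 470 and without either morphogenesis library it was 0. ENSGALG00000018890, with a value in chicken only, went from 2.14 and 4.08 TPM to 415 and 542 TPM (log2 difference 6.89, SE 0.30, limma adjusted p = 0.027). ENSGALG00000000341 was listed at 0 in both placode libraries and stood at 46.9 and 51.8 TPM at morphogenesis, and no fold is given for it. It met the 1 TPM filter only through the morphogenesis libraries and leaves the fit without either of them. Equal values of 0 at placode add no spread, so its call (limma adjusted p = 0.027) is description only. Both genes were at or near 0 in the chicken claw dermis, ENSGALG00000018890 at 0.272 TPM and listed at 0, and ENSGALG00000000341 listed at 0 at both stages.

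In place of named markers, the layers of the skin were read from gene lists made in other libraries. In chicken feather and scale skin, 528 genes were at least 4-fold higher in the mean of 16 epidermis libraries than in that of 8 dermis libraries and reached 5 TPM, and 1058 genes were so in dermis. The claw libraries had no part in this choice.

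Epidermis-enriched genes held 6.73% and 10.1% of the chicken claw TPM at placode and 15% and 15.8% at morphogenesis, a difference of 6.98 percentage points between the stage means. The stages did not overlap, and the difference was 5.3 points without placode replicate 1 and 8.67 without placode replicate 2. In the chicken claw dermis the list held 1.18% and 0.817%. Of the net gain of 69440 TPM, 10 genes made up 55810 TPM, and 6 of these 10 have no value in the other species. In all, 298 of the 528 genes were higher and 229 lower at the later stage in the mean, and the number above 1000 TPM went from 17 to 26. Of the 487 list members in the chicken fit, 201 had both later libraries above both earlier ones (41.3%, against 19.7% of all 11400 genes) and 118 had both below (24.2% against 40.7%).

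The gain came both from genes with a value in chicken alone and from genes with a value in another species. The former held 2.52% and 4.97% of the chicken claw TPM at placode and 7.67% and 7.91% at morphogenesis. The latter, 406 of the 528, held 4.21% and 5.13% and then 7.34% and 7.86%. The 153 members tested in all species held 1.77% and 1.69% and then 1.87% and 2% in chicken. In alligator those 153 held 4.53% and 4.1% and then 5.28% and 5.72%, and in emu 4.12% and then 4.49% and 4.46%. Each later library was above each earlier one of its species. Each share is of all genes with a value, 17889 in chicken, 9295 in alligator and 8749 in emu. The sizes of the shares and of their changes are thus not compared between species. In the mean over species 51 of the 153 rose (33.3%, against 8.09% of all tested genes) and 31 fell (20.3% against 28.8%), with a median log2 difference of 0.20 against -0.18 for all tested genes.

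Of the 177 dermis-enriched genes tested in 3 species, 6 rose (3.39%, against 8.09% of all tested genes) and 40 fell (22.6% against 28.8%). Both shares were below those of all genes, while the median was -0.38 against -0.18. By species the median was -0.45 in chicken, -0.13 in emu and -0.65 in alligator, where all tested genes had -0.14, -0.16 and -0.25. Without chicken placode replicate 2 the chicken median was 0.07, over the 156 list members then tested, while that of alligator was -0.65. These 177 genes held 0.776% and 0.932% of the alligator TPM at placode and 0.631% and 0.639% at morphogenesis, and in emu 0.964% and then 1.05% and 0.842%. The stages were apart in alligator and overlapped in emu. In chicken they held 0.246% and 0.51% at placode and 0.329% and 0.277% at morphogenesis, where the stages overlapped. These shares, too, are of all genes with a value in the species and are not compared between species. The part of dermis RNA in the alligator differences was not tested.

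**Figure D4:**
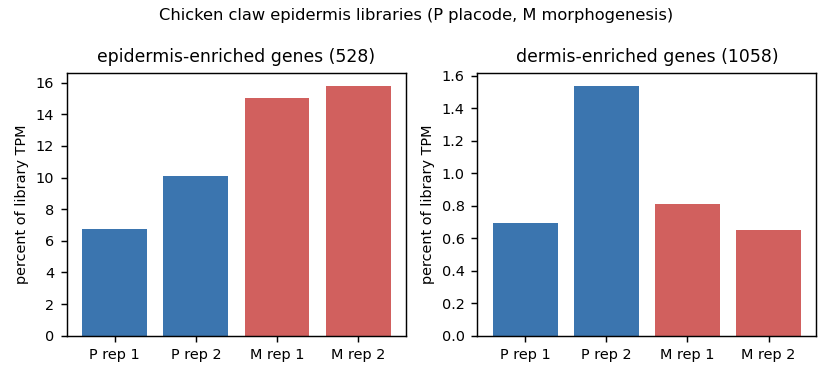
Share of library TPM, in percent, held by the 528 epidermis-enriched genes (left) and the 1058 dermis-enriched genes (right) in each chicken claw epidermis library; bars are single libraries at placode (P, blue) and morphogenesis (M, red), with no error bars. The epidermis list goes from 6.73% and 10.1% to 15% and 15.8%, and the dermis list is highest, at 1.54%, in placode replicate 2.

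The claw risers and fallers were last set beside the same stage step in the other appendages, in 39 epidermis libraries of feathers and scales that had no part in choosing them. Of the 254 risers 241 were tested there. Averaged over 10 appendages, 131 rose (54.4%, against 16.7% of all 4526 genes) and 21 fell (8.71% against 28.5%). Of the 1073 fallers 1067 were tested, and 443 fell (41.5%) and 69 rose (6.47%). For the sets chosen without chicken placode replicate 2, 175 of 327 tested risers rose (53.5%) and 454 of 1102 tested fallers fell (41.2%). The 15 genes that rose over 2-fold in TPM + 1 in every species included 12 that were tested. All 12 were called higher in the mean over the 10 appendages, which does not mean a rise in each appendage. Of the 7 that fell over 2-fold in every species 6 were tested, and 5 fell in that mean. After median-of-ratios rescaling 1106 of all genes rose and 1033 fell in the other appendages, in place of 758 and 1291. Specimens recur in these libraries. Chicken claw placode replicate 1 shares its specimen number with a dorsal and a femoral feather library of the later stage, and emu claw morphogenesis replicate 2 with an emu scutate library. That scutate library is labelled with a later HH stage than the claw library, although the specimen number is the same. Several dorsal feather libraries share specimens with femoral feather libraries and one with a scutate library. The fits over 39 and 50 libraries treated all libraries as independent, so their p-values may be too small.

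The appendages differed in how they read these genes. The median log2 difference of the risers was 0.30 in chicken scutate scales, 0.21 in chicken reticulate scales, 0.22 in emu reticulate scales and 0.26 in alligator femoral scales, where all genes had medians of -0.10, -0.10, -0.07 and -0.18. It was 0.15 and 0.08 in chicken dorsal and femoral feathers, where all genes had 0.07 and 0.03, and -0.04 and 0.05 in those of emu, where all genes had 0.01 and 0.05. The fallers had medians of -0.26, -0.22, -0.21 and -0.41 in those 4 scale types and 0.06 or 0.07 in all 4 feather groups. Alligator flank scales and emu scutate scales gave riser medians of 0.01 and 0.09 and faller medians of -0.14 and -0.00. All genes had -0.12 and 0.03 there, so the order was the same, with smaller gaps. No test of a difference between scales and feathers was made.

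**Figure D5:**
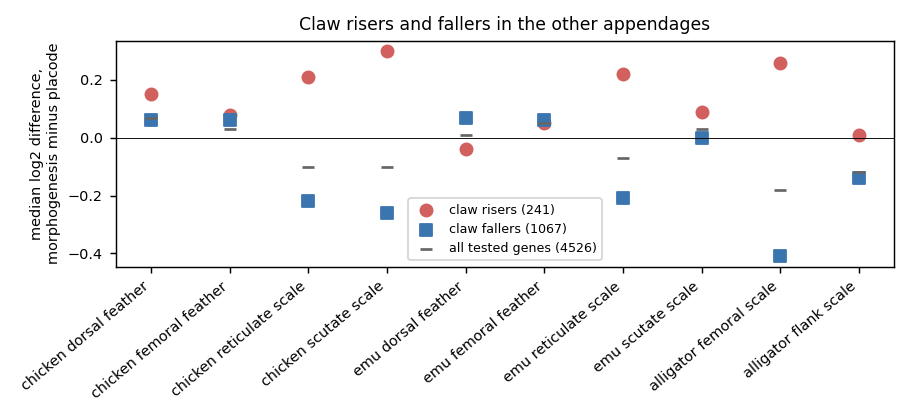
Median log2(TPM + 1) difference between morphogenesis and placode (vertical axis) in each of the 10 other appendages (horizontal axis), for the 241 claw risers (red circles), the 1067 claw fallers (blue squares) and all 4526 tested genes (grey dashes). Risers lie above and fallers below all genes in every scale type, by least in alligator flank and emu scutate scales. In the other 4 scale types risers lie from 0.21 to 0.30 and fallers from -0.21 to -0.41. The sets lie close together in most feather groups.

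The chicken claw dermis, with 1 library per stage and hence no replicate check, gave little separation. The risers had a median log2 difference of -0.06 there, close to the -0.07 of all tested genes. They were higher in 42.1% of cases, against 38.5% of all tested genes. The fallers had a median of -0.11 and were higher in 29.3%. The later dermis library shares its specimen number with chicken claw morphogenesis replicate 2.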

How the data were processed

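The authors deposited one table of TPM values, with a single column per library, for chicken, emu and alligator under chicken gene identifiers. HTSeq 0.5.3p9, TopHat2 2.0.6 and CASAVA are listed, without their roles, per the submitters' processing notes. Genome builds, the annotation and the scaling of the emu and alligator values were not given in the sources used here. Per the labels' protocols, dissected skin was held for 13 h at 4 °C in dispase (10 mg/mL), and polyA-enriched, strand-specific libraries were made.

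Values were taken as log2(TPM + 1), which understates the change of low genes, and fitted with limma 3.58.1 in R 4.3.3. Each combination of species and stage had its own mean, variances were shrunk by eBayes with its trend and robust options, and p-values were adjusted by the Benjamini-Hochberg method over all tested genes, with a threshold of 0.05. Genes were tested where 2 or more libraries of every species in the fit reached 1 TPM. The single emu placode library was assumed to vary like the other groups. P-values measure the spread between these libraries. The code was tested on simulated data.

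The named genes are the 2 identifiers each way with the largest called change per comparison; where no gene was called in every species, the looser rule (called in the mean, with the same sign in each species) stood in. The comparison, lists and rules were chosen with earlier results of these data known. The 20 gene lists, written with symbols, could not be applied, because 0 identifiers matched. All per-sample columns were mapped to samples, and 0 pairs of claw libraries held identical values. Alternatives changed the pseudocount (0.1 and 5), the filter, the scaling, the shrinkage and the libraries in the fit.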

Additional observations from a re-analysis of the deposited data

Results flagged for a closer look

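The stage difference of 10 named genes differed between species, by limma's test of one species against the mean of the others with Benjamini-Hochberg adjustment over 4278 genes. The genes placed in chicken or alligator alone had been chosen by a call in this same test. Their calls here, and the order of their libraries, are thus description and no separate result. Values are differences of log2(TPM + 1) differences. Groups hold 1 or 2 libraries, too few to test for a single library far from its group.

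In chicken against the others, ENSGALG00000016721 differed by 3.18 (adjusted p = 0.0045), ENSGALG00000009830 by 3.36 (0.03), ENSGALG00000004860 by -2.56 (0.046) and ENSGALG00000013553 by -1.30 (0.027). In each, both later chicken libraries lay on the same side of both earlier ones. In alligator against the others, ENSGALG00000001209 differed by 3.22 (adjusted p = 0.011), ENSGALG00000004078 by 3.29 (0.019), ENSGALG00000016324 by -4.73 (0.017) and ENSGALG00000004420 by -2.22 (0.012), again with 2 of 2 later libraries beyond both earlier ones. The riser ENSGALG00000016150 differed by 3.15 (0.012) and the faller ENSGALG00000020899 by -2.03 (0.011), both moving further in alligator than in the mean of the birds. For ENSGALG00000016150 that mean includes emu values near 0, and the difference between alligator and chicken alone was not called.

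For 3 of the chicken genes the alligator test was called too, with the opposite sign. ENSGALG00000016721 gave -1.85 (adjusted p = 0.014), ENSGALG00000009830 -2.42 (0.029) and ENSGALG00000004860 2.81 (0.013). Both tests use the same 11 libraries, and the chicken difference is part of the mean that alligator is set against.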

How the results depend on the processing

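No named gene changed direction under any alternative in which it was tested, and 57 of 443 values of named genes lost their call. Alternatives under which a gene left the fit are not among the 443, as for ENSGALG00000016150 and ENSGALG00000024296. TPM keeps no depth, so low genes cannot be given a counting error, and emu has 1 placode library, which cannot be left out. No paired analysis was possible because the claw groups share no specimen numbers in the labels, and the replicate numbers given here were assigned in accession order.

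Leaving out each other library in turn gave 1040 to 1849 genes called in the mean over species (1577 with all), 917 to 1452 risers and fallers (1327), 0 to 18 called in each species (0), 7 to 906 in chicken (291), 0 to 74 in emu (0) and 378 to 1596 in alligator (1307). The tests of a species against the others gave 4 to 422 genes for chicken (33), 0 to 104 for emu (1) and 2 to 512 for alligator (282). Genes changing in a single species numbered 1 to 173 for chicken (12), 0 to 9 for emu (0) and 1 to 364 for alligator (227). The birds gave 0 to 806 (2), chicken with alligator 1126 to 3001 (2439) and chicken alone 0 to 2548 (3). Each omission left 1 library in a group, which then added no spread of its own. The cause of the ranges was not tested.

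With all 50 epidermis libraries, which share one estimate of the spread, 2398 genes were called in the mean (538 higher and 1860 lower), 1546 in chicken, 670 in emu, 2200 in alligator and 194 in each species. Against the others 821, 298 and 1081 were called for chicken, emu and alligator, and 231, 45 and 552 changed in that species alone. With the emu and alligator libraries of a lane number held by both stages, the counts were 775 in the mean (201 higher and 574 lower), 1.1e+02 in chicken (51 higher and 62 lower), 579 in alligator and 675 risers and fallers (149 and 526). Against the others 10 were then called for chicken, 0 for emu and 7 for alligator, and 4 and 7 changed in chicken and alligator alone. The chicken libraries mostly carry no lane number, and this choice also leaves fewer libraries.

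The emu count was 29 after median-of-ratios rescaling, 36 after quantile normalization, 8 with a 5 TPM filter, 8 with a pseudocount of 5, 20 without a filter and 1 without trend or robust shrinkage. Under the same settings, in that order, genes called in each species numbered 6, 7, 3, 3, 1 and 0, and emu against the others gave 0, 3, 5, 5, 14 and 0. Emu alone gave 1 after quantile normalization, 1 with the 5 TPM filter, 2 with the pseudocount of 5 and 8 without a filter. Chicken alone gave 19 genes without a filter. The birds gave 52 genes after median-of-ratios rescaling, 10 with a pseudocount of 5, 1 with a pseudocount of 0.1 and 0 without a filter, and the chicken table gave 0 without a filter. The cause of these differences was not tested.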
